A study of Saccharomyces cerevisiae with 4 samples.

Results

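The subject here is the total expression of each gene in a yeast hybrid compared with a co-culture of haploid strains. The total of a gene is the sum of its reads from the BY allele and from the RM allele in one RNA-sequencing library. All 4442 gene pairs of the deposited tables were members, and 4327 of them had enough reads to be tested. The hybrid (WL201) was an a/alpha diploid of Saccharomyces cerevisiae that carries the genome of BY4741, a laboratory strain, and that of RM11-1alpha, a strain of vineyard origin. In the co-culture BY4741 grew beside RM11-1a, and both are haploids of mating type MATa. BY4741 carries deletions of HIS3, LEU2, MET17 (also called MET15) and URA3, and RM11-1a is described with deletions of LEU2 and URA3. Whether RM11-1alpha carries the same deletions was not established here. It is therefore not known whether the hybrid lacked an intact LEU2 or URA3. The BY cells of the co-culture lacked HIS3 and MET17, whereas each hybrid cell carried the RM genome beside these deletions. Ploidy, mating type, the deletions per cell, the RM parent that the labels name and the culture itself all differed between the groups. Their effects cannot be told apart here.

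Each group had 2 libraries, which the labels call technical replicates, and nothing in the labels ties a library number to a culture or to a PCR reaction. The p-values below measure only the spread between these libraries. Whether that spread includes variation between separate cultures is not known. The 4 libraries held between 2692044 and 4183129 reads over the 4442 genes, and the BY share of the reads was between 49.51% and 49.62%. Levels are given as CPM, counts per 1000000 reads of a library after TMM scaling, a correction for the make-up of a library, and are compared only within a gene because gene length is not taken into account. In bulk samples, fewer cells of a type and less RNA per cell cannot be told apart.

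Several pathways that the results turn on are background knowledge for this yeast. The regulator Leu3 turns on leucine synthesis genes when the pathway intermediate alpha-isopropylmalate builds up, and Gcn4 and Bas1 act on amino acid and purine synthesis genes. Msn2 and Msn4 turn on a broad set of stress genes when cells slow down or are stressed. Assembly of ribosomes in the nucleolus needs a large set of factors that are made together with the ribosomal proteins when cells grow fast. Haploid cells of either type bud next to their last division site, whereas a/alpha diploids bud at both poles and repress the haploid-specific genes.

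Of the 4327 genes tested, 762 were higher in the hybrid and 768 were lower at an adjusted p of 0.05 (edgeR quasi-likelihood test, two-sided, Benjamini-Hochberg adjustment over all genes tested). These are 17.6% and 17.7% of the genes tested, and a pathway's counts below are read against these shares. Most differences were small, with a median log2 difference of 0.36 among the genes called higher and -0.47 among those called lower. At least 2-fold changes were mostly falls, with 112 genes lower and 8 higher. Outside the mating lists 93 genes fell at least 2-fold. The median log2 difference over all genes tested was -0.02. Of the 1530 genes called, 1524 had both hybrid libraries on the same side of both co-culture libraries. Groups given below as apart or without overlap therefore add little to a call.

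**Figure D1:**
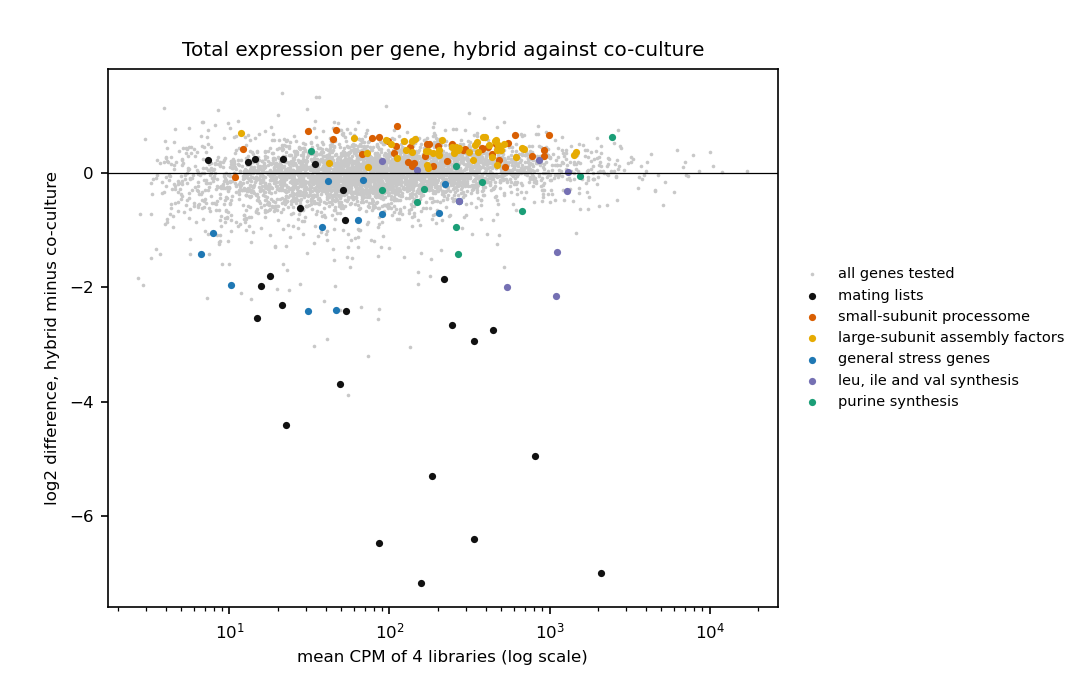
Each point is 1 gene, with its mean CPM over the 4 libraries on the x axis (log scale) and its fitted log2 difference, hybrid minus co-culture, on the y axis; genes with 3 reads or fewer over both libraries of a group (KAR4 and STE18) are not plotted. The ribosome assembly factors form a band just above 0, while the mating genes and part of the stress and leucine genes lie far below it.

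The labels of mating type were checked against marker genes. All 4 tested a-specific genes and all 7 tested haploid-specific genes were lower in the hybrid. Of the alpha-specific genes, 2 were tested, of which 1 was lower in the hybrid. When only genes with a mean of at least 50 reads were tested, none of them was lower.

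Genes on chromosome XIII stood apart from those on other chromosomes. On this chromosome 165 of 341 genes tested were higher in the hybrid (48.4%) and 16 were lower (4.69%), while the share higher on the other chromosomes lay between 12.2% and 20.7%. The median log2 difference of the totals on chromosome XIII was 0.26, with a median of 0.53 for the RM reads and -0.03 for the BY reads. The medians of the RM reads on the other chromosomes lay between -0.01 and 0.09. For a list with 4 or more members called in a direction, the count from a fit without the genes of chromosome XIII is given where it differs by more than 1.5 times. Counts of 3 or fewer members often changed when 1 library was left out. In that fit, 730 of 3988 genes were higher (18.3%) and 640 were lower (16.0%). The part that chromosome XIII plays in the other results was not tested beyond this.

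The promoters of the members with the smallest p in 4 lists are shown here, because the binding-site letters of the lists' known regulators can be looked for in them. Each window runs from 250 bases before to 50 bases after the start of the gene in RefSeq's R64 assembly, 5′ to 3′ on the coding strand. The lists whose promoters are shown were picked after their values were seen. In the leucine windows, capitals mark the core of the Leu3 site (CGGNNCCG, both strands searched). The windows are LEU1 on the minus strand (chrVII:478603-478902), OAC1 on the plus strand (chrXI:217094-217393) and BAT1 on the plus strand (chrVIII:517282-517581).
LEU1: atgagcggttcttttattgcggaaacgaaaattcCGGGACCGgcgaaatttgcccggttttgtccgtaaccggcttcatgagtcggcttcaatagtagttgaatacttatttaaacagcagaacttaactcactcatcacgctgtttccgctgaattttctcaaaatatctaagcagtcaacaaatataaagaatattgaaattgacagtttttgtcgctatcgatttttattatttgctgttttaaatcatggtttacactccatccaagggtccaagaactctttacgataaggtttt
OAC1: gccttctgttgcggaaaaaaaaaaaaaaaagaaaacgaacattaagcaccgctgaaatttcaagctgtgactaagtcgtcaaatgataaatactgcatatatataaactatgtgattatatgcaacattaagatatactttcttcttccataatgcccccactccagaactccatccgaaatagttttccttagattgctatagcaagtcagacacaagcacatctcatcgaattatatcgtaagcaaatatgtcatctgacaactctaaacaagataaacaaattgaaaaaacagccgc
BAT1: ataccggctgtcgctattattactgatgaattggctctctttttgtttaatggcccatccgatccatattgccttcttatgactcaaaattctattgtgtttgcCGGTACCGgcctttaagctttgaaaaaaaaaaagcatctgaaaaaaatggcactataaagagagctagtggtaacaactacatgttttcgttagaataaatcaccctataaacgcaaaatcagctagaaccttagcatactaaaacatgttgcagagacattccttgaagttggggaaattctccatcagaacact
LEU1 and BAT1 each held 1 match, and these letters are not in the window of OAC1.

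In the windows of the purine genes ADE17 (minus strand, chrXIII:509231-509530) and ADE1 (plus strand, chrI:169125-169424), capitals mark TGACTC, the core bound by Gcn4 and Bas1, on either strand.
ADE17: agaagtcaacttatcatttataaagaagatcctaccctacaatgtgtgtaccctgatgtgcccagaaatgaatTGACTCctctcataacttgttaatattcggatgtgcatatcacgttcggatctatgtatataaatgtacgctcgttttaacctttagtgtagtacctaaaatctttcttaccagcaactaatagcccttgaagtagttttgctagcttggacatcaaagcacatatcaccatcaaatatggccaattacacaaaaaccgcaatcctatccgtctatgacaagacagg
ADE1: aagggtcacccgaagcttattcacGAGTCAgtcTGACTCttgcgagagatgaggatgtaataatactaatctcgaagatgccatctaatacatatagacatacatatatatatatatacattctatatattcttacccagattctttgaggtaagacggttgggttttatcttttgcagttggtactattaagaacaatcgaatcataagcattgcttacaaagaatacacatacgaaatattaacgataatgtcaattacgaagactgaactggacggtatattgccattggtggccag
ADE17 held 1 match and ADE1 held 2.

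In the windows of the ribosome assembly genes RRP5 (minus strand, chrXIII:731074-731373), UTP14 (plus strand, chrXIII:82840-83139) and HCA4 (plus strand, chrX:383587-383886), capitals mark GCGATGAG, the PAC element (polymerase A and C) found before many genes of ribosome synthesis.
RRP5: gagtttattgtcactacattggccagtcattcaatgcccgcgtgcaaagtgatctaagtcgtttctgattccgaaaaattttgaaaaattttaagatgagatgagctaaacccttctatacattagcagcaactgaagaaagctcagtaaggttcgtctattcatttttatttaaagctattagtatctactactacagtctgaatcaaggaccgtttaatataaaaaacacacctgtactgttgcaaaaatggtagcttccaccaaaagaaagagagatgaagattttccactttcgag
UTP14: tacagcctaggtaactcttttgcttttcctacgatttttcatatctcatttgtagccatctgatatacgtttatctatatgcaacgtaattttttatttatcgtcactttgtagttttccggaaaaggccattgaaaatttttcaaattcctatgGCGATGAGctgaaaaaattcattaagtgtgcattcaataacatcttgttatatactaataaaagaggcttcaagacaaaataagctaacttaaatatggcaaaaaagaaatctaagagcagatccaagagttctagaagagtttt
HCA4: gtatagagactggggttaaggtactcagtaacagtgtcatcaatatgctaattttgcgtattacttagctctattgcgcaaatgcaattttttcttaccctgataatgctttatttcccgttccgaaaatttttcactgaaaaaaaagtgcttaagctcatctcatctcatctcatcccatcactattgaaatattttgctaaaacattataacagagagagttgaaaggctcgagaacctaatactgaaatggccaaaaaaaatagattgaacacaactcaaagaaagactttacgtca
UTP14 held 1 match, and these letters are not in the windows of RRP5 and HCA4.

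In the window of the zinc transporter gene ZRT1 (plus strand, chrVII:20728-21027), capitals mark CTTNAAGG, the core of the site of the zinc regulator Zap1.
ZRT1: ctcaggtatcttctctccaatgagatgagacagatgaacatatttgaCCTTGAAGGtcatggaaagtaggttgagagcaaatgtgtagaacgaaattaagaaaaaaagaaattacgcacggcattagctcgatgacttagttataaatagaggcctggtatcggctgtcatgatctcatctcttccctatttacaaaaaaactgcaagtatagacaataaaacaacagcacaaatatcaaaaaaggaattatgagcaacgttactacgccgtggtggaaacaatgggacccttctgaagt
The 2 matches in ZRT1 are on opposite strands and overlap, so they mark a single stretch.

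Among the amino acid synthesis lists, LEU1 and OAC1 of the leucine branch had the largest falls in the hybrid. LEU1 (YGL009C), the isomerase that follows alpha-isopropylmalate in the pathway, was at 411 and 394 CPM in the hybrid libraries and at 1786 and 1776 CPM in the co-culture libraries. Both hybrid libraries were far below both co-culture libraries, and LEU1 fell by 2.15 on the log2 scale (SE 0.06, adjusted p = 6.32e-22, edgeR). OAC1 (YKL120W), a mitochondrial carrier that moves oxaloacetate and alpha-isopropylmalate, was at 213 and 221 CPM in the hybrid and at 892 and 837 CPM in the co-culture, a fall of the same order with no overlap (log2 -1.99 ± 0.06 SE, adjusted p = 2.82e-20). BAT1 (YHR208W), the mitochondrial branched-chain aminotransferase, stood at 622 and 606 CPM against 1692 and 1523 CPM, again with the groups apart (log2 -1.39 ± 0.06 SE, adjusted p = 6.94e-17). For these 3 genes the BY reads and the RM reads moved alike, by -2.36 and -1.92 in LEU1, by -2.14 and -1.85 in OAC1 and by -1.41 and -1.36 in BAT1, as log2 differences of CPM.

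The rest of the branched-chain list did not follow these 3 genes closely. Of 9 tested members of leucine, isoleucine and valine synthesis, 5 fell, 1 rose and 3 did not pass the test, with a median log2 difference of -0.31. BAT2, the cytosolic aminotransferase, fell by 0.49 on the log2 scale (adjusted p = 1.74e-06, edgeR), and its alleles went opposite ways, by -1.32 for the BY reads and 1.03 for the RM reads. When the reference was the mean of the log2 BY and RM levels of the co-culture, each scaled as a library of its own (called the mean of the parents below), BAT2 no longer passed. ILV6, the regulatory subunit of acetolactate synthase, rose by 0.22 (adjusted p = 0.00335). ILV2, its catalytic subunit, was at 1331 and 1276 CPM in the hybrid and at 1315 and 1276 CPM in the co-culture, which overlap. LEU3 itself, the regulator, was at 236 and 229 CPM against 249 and 247 CPM and did not pass (log2 -0.09, adjusted p = 0.34). The Leu3 core was in 3 of the 9 promoters of the list (LEU1, BAT1 and ILV3), compared with 0.921% of the promoters of 4236 genes tested.

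Purine synthesis leaned the same way. Of 11 tested members 7 fell and 1 rose, and the median log2 difference was -0.29. ADE17 (YMR120C), which catalyses the last steps to IMP, was at 145 and 146 CPM in the hybrid and at 414 and 365 CPM in the co-culture. That is a fall of 1.41 on the log2 scale with the groups apart (SE 0.08, adjusted p = 7.08e-15, edgeR), although the gene lies on chromosome XIII, where totals were mostly higher. ADE1 (YAR015W), the SAICAR synthetase, was at 185 and 173 CPM against 347 and 339 CPM, with no overlap (log2 -0.94 ± 0.07 SE, adjusted p = 1.71e-11). ADE13, adenylosuccinate lyase, and ADE2, AIR carboxylase, fell by 0.67 and 0.51. In the opposite direction, GUA1 (YMR217W), the GMP synthase, was at 3043 and 2890 CPM in the hybrid and at 1970 and 1885 CPM in the co-culture. GUA1 rose by 0.62 (adjusted p = 1.04e-09), and it too lies on chromosome XIII. The count of purine genes lower was 4 without hybrid replicate 1 and 4 with DESeq2. The sequence TGACTC was in 8 of the 11 purine promoters, compared with 8.76% of all promoters searched. The same letters were in 5 of 9 leucine list promoters, 5 of 5 histidine promoters and 5 of 8 arginine promoters. Within the leucine list, members with TGACTC had a median of 0.05 and those without it a median of -1.24. GCN4 and BAS1 did not pass the test, with log2 differences of 0.06 and 0.21.

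Serine, glycine and one-carbon genes also leaned to lower levels in the hybrid. Of 10 tested members of the list 6 fell and 1 rose, and the median log2 difference was -0.46. SHM2 (YLR058C), the cytosolic serine hydroxymethyltransferase, was at 840 and 823 CPM in the hybrid and at 1244 and 1123 CPM in the co-culture. The groups were apart, and SHM2 fell by 0.51 on the log2 scale (SE 0.06, adjusted p = 8.95e-08, edgeR). GCV2 and GCV3, subunits of the glycine cleavage complex, fell by 0.49 and 0.54. In GCV2 the BY reads fell by 1.52 while the RM reads were higher by 0.92. In histidine synthesis 3 of 5 tested genes fell, of which HIS4, a multifunctional enzyme, fell by 0.63 (adjusted p = 2.26e-06) and HIS5, the aminotransferase, by 0.52 (adjusted p = 0.000387). The median log2 difference of the histidine list was -0.41 for the BY reads and -0.01 for the RM reads. In arginine synthesis 3 of 8 tested genes fell and 1 rose (median log2 difference -0.13). In aromatic amino acid synthesis 2 of 11 tested genes fell and 1 rose (median 0.06), in lysine synthesis 1 of 4 fell and 1 rose (median 0.13), and in the metabolism of glutamate, glutamine, aspartate and proline 1 of 12 fell and 3 rose (median -0.09).

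In sulfur assimilation and methionine synthesis, 7 of 17 tested members fell and 4 rose. Log2 differences in the list ran from -1.95 to 0.51, so MET6 below was not its lowest member. MET6 (YER091C), the methionine synthase, was at 62.3 and 54.4 CPM in the hybrid and at 131 and 118 CPM in the co-culture, and fell by 1.11 on the log2 scale (SE 0.11, adjusted p = 3.28e-09, edgeR). CYS3 and SAM1, which make cysteine and S-adenosylmethionine, rose by 0.40 and 0.38. The list's count lower was 3 without hybrid replicate 2, 3 without co-culture replicate 2 and 1 with DESeq2, and its count higher was 2 without co-culture replicate 2 and 2 with DESeq2. ARG4, the argininosuccinate lyase, fell by 0.93 (adjusted p = 1.96e-09), but it no longer passed against the mean of the parents. None of 18 tested targets of nitrogen catabolite repression rose (1 without chromosome XIII, 1 without hybrid replicate 2 and 1 against the mean of the parents) and 7 fell, with 4 lower without hybrid replicate 2, 4 lower against the mean of the parents and 2 lower with DESeq2. GAT1 (YFL021W), an activator of this group, was at 56.5 and 63.7 CPM in the hybrid and at 118 and 108 CPM in the co-culture, with the groups apart (log2 -0.90 ± 0.11 SE, adjusted p = 1.64e-07).

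Transport of amino acids went the other way. Of 13 tested permeases 5 were higher and 1 was lower, and the median log2 difference was 0.23. GNP1 (YDR508C), a high-affinity glutamine permease, was at 3195 and 3162 CPM in the hybrid and at 2349 and 2245 CPM in the co-culture. BAP3, a branched-chain amino acid permease, rose by 0.55 on the log2 scale (adjusted p = 8.25e-07, edgeR), and GNP1 rose by 0.47 (adjusted p = 1.54e-07), each with the groups apart. BAP2, the related permease, fell by 0.30 (adjusted p = 0.000158).

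**Figure D2:**
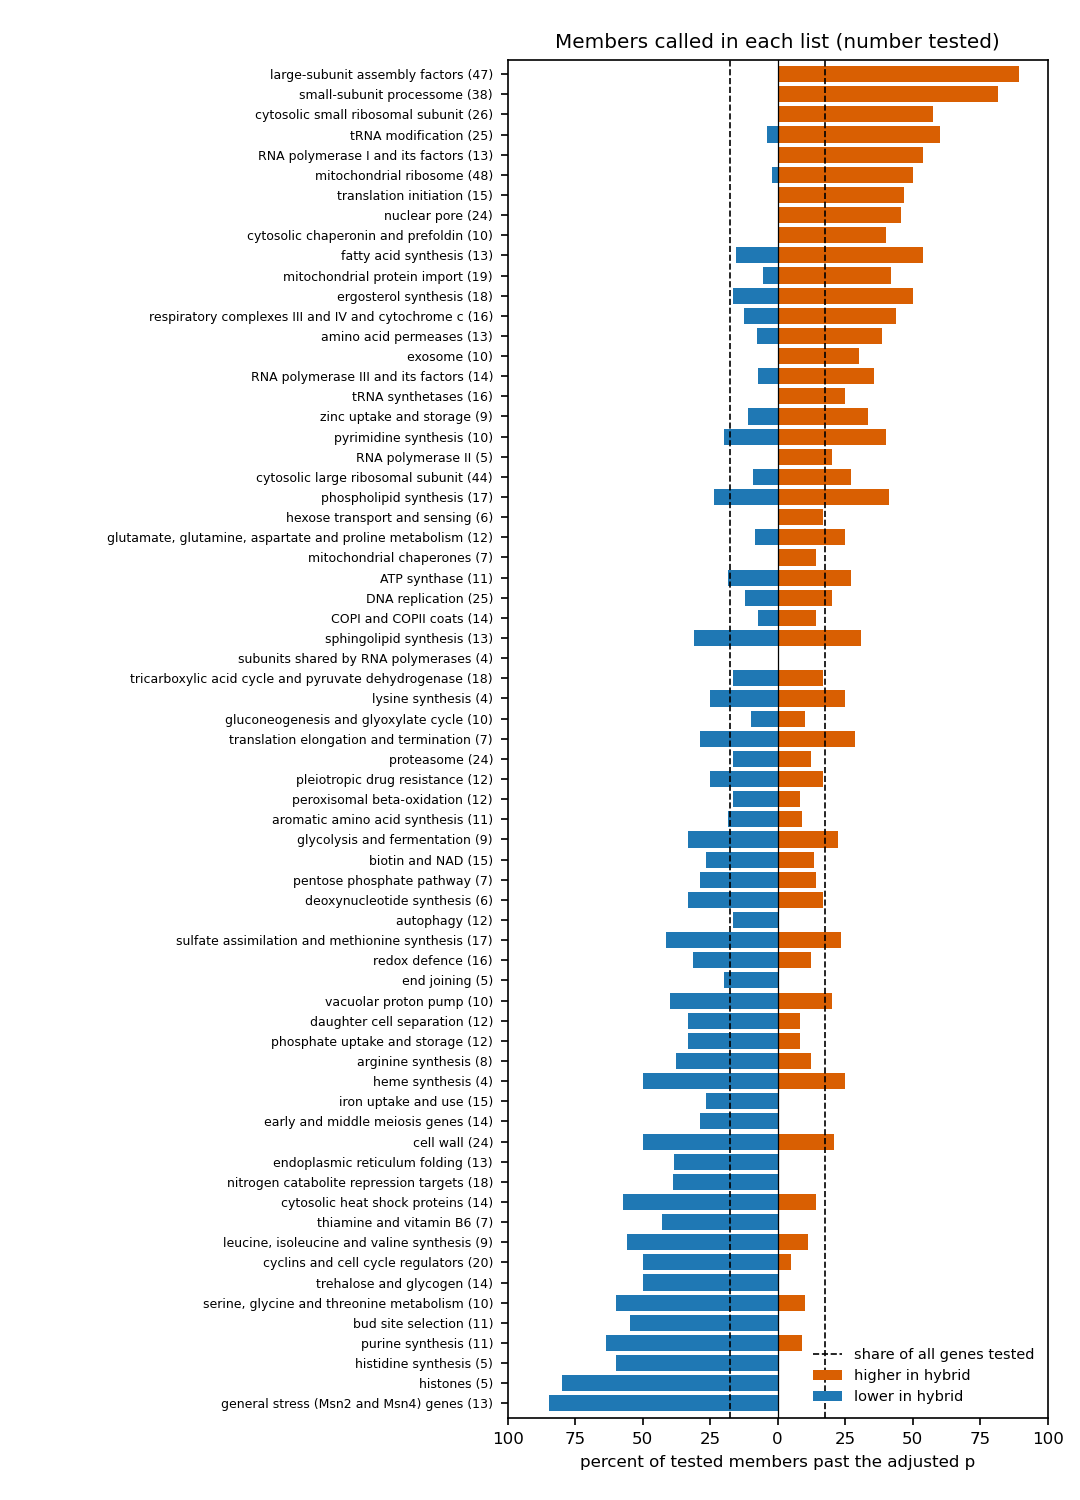
Bars give, for each list with at least 4 tested members (number in brackets) other than the mating lists, the regulators and the lists added later, the percent of tested members higher (orange, to the right) and lower (blue, to the left) in the hybrid at an adjusted p of 0.05. The dashed lines mark the shares over all genes tested, 17.6% higher and 17.7% lower; among the lists drawn, the assembly factors of both ribosomal subunits extend farthest to the right and the general stress genes farthest to the left.

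Stress genes were lower in the hybrid as a group. Of 13 tested genes of the general stress list 11 fell, none rose, and the median was -0.82. In 11 of the 13 genes both the BY reads and the RM reads were lower. HSP26 (YBR072W), a small heat shock protein, was at 12.7 and 16.3 CPM in the hybrid and at 74.7 and 81.0 CPM in the co-culture. HSP12 (YFL014W), a membrane-protecting stress protein, was at 8.69 and 10.5 CPM against 55.1 and 49.9 CPM. Both genes were several times lower in each hybrid library than in either co-culture library, and they fell by 2.39 (SE 0.16, adjusted p = 1.16e-12) and 2.42 (SE 0.19, adjusted p = 5.72e-11) on the log2 scale (edgeR).

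Less abundant members of the stress list behaved alike. SOL4, a 6-phosphogluconolactonase, was at 3.26 and 4.79 CPM in the hybrid and at 19.2 and 13.8 CPM in the co-culture (log2 -1.96 ± 0.32 SE, adjusted p = 1.47e-05, edgeR). CTT1, the cytosolic catalase, was at 3.26 and 3.83 CPM against 11.1 and 8.47 CPM, a fall of 1.42 (adjusted p = 0.00248). The groups were apart in both genes. Among better expressed members, YGP1, a secreted glycoprotein, fell by 0.82, GRE3, an aldose reductase, by 0.72, PNC1, the nicotinamidase, by 0.71 and GPD1, the glycerol-3-phosphate dehydrogenase, by 0.49. RTN2 and TFS1 did not pass, with log2 differences of -0.13 and -0.14. SPI1, a cell wall protein, fell by 0.95, with -2.11 for the BY reads and -0.02 for the RM reads. The stress element AGGGG was in 8 of the 13 promoters, compared with 21.7% of all promoters searched. Members with it had a median of -0.72 and members without it a median of -0.95. MSN2, which encodes one of the regulators, did not pass (log2 0.24, adjusted p = 0.091).

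Among 14 tested cytosolic heat shock genes, 8 were lower and 2 higher in the hybrid, and the median log2 difference was -0.41. HSP104 (YLL026W), the disaggregase, was at 270 and 278 CPM in the hybrid and at 403 and 430 CPM in the co-culture, with the groups apart (log2 -0.61 ± 0.07 SE, adjusted p = 2.52e-08, edgeR). HSP42, a small heat shock protein, SSE2, a nucleotide exchange factor of Hsp70, and BTN2, a sorting factor for misfolded proteins, fell by 1.60, 1.29 and 1.33. In these genes the BY reads carried most of the fall. HSP104 had -1.01 for BY reads and 0.06 for RM reads, and BTN2 had -2.04 and -0.17. Over the whole heat shock list the median was -0.60 for BY reads and -0.10 for RM reads. STI1, a cochaperone of Hsp90, rose by 0.27 (adjusted p = 0.000264). The core of the heat shock element (GAANNTTC) was in 5 of 14 promoters, compared with 12.3% of all. Members with this core had a median of -0.03, compared with -0.42 without it. HSF1, the regulator, did not pass (log2 0.09).

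The trehalose and glycogen list had 7 of 14 tested members lower and none higher, with a median of -0.28. GSY2 (YLR258W), the main glycogen synthase, was at 105 and 110 CPM in the hybrid and at 172 and 178 CPM in the co-culture, with the groups apart (log2 -0.70 ± 0.08 SE, adjusted p = 1.13e-07, edgeR). TPS1, the trehalose-6-phosphate synthase, fell by 0.42 (adjusted p = 1.59e-05). The count lower was 4 without hybrid replicate 1 and 2 with DESeq2. AGGGG was in 6 of the 14 promoters, and members with it had a median of -0.39 compared with -0.20 without it.

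Ribosome assembly genes were higher in the hybrid in nearly all members. In the small-subunit processome, the complex that processes the precursor of the small ribosomal subunit, 31 of 38 tested members rose, none fell, and the median was 0.43. Among assembly factors of the large subunit 42 of 47 rose, none fell, and the median was 0.40. The rises were small, and 8 and 5 genes of the lists reached 1.5-fold. Both alleles were higher in 34 of 38 and in 45 of 47 members. Without chromosome XIII, 28 of 34 and 41 of 45 members rose.

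RRP5 (YMR229C), needed for both subunits, was at 1259 and 1163 CPM in the hybrid and at 779 and 749 CPM in the co-culture. UTP14 (YML093W), a partner of the helicase that unwinds the U3 snoRNA, was at 762 and 718 CPM against 497 and 440 CPM. Both lie on chromosome XIII, both had the groups apart, and they rose by 0.66 each (adjusted p = 4.88e-10 and 2.77e-09, edgeR). On other chromosomes, HCA4 (YJL033W), an RNA helicase of the DEAD-box family, was at 654 and 648 CPM in the hybrid and at 460 and 450 CPM in the co-culture (log2 0.52 ± 0.06 SE, adjusted p = 5.96e-08). UTP5 and ROK1 rose by 0.49 and 0.50. In the large-subunit list, SPB1 (YCL054W), a methyltransferase of the rRNA, was at 471 and 483 CPM in the hybrid and at 309 and 307 CPM in the co-culture. SPB1 rose by 0.63 (SE 0.06, adjusted p = 4.84e-09) with similar values for BY reads (0.67) and RM reads (0.51). EBP2, RPF2 and DRS1, which act in early steps of large-subunit assembly, rose by 0.56, 0.51 and 0.54.

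The PAC element was in 22 of 38 processome promoters and in 29 of 47 large-subunit promoters, compared with 4.44% of all promoters searched. Only the exact letters GCGATGAG were counted, so promoters given as without the element may hold variants of it. Another element of ribosome assembly genes, the ribosomal RNA processing element (GAAAAATTT), was in 23 of 38 and in 25 of 47, compared with 6.66% of all. Over all genes tested, those with the PAC element had a median log2 difference of 0.25 and those without it -0.03. Inside the processome list the medians were 0.43 with and 0.44 without the PAC element, and inside the large-subunit list 0.40 and 0.39. With and without the processing element they were 0.44 and 0.42 in the processome list and 0.40 in both parts of the large-subunit list.

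**Figure D3:**
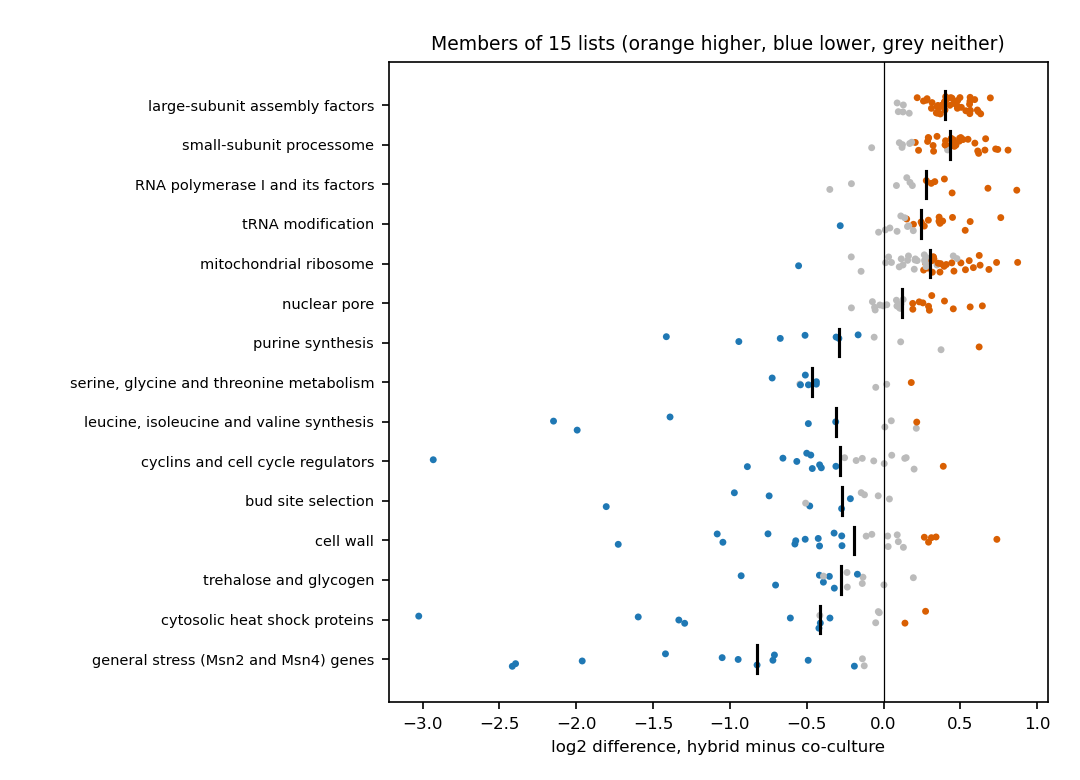
Each point is a tested member of one of 15 lists, placed by its log2 difference, hybrid minus co-culture (orange past the test and higher, blue past the test and lower, grey not past it), and the black bar is the median of the list. The assembly factors are shifted together by a small amount, whereas the leucine, purine, heat shock and cell cycle lists hold a few members far to the left and others near 0; the 15 lists were picked after their values were seen.

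Other genes of RNA and protein synthesis moved the same way in part. Of 13 tested genes of RNA polymerase I and its factors 7 rose and none fell (median 0.28). The exact letters GCGATGAG were in 0 of their 13 promoters, and variants of the PAC element were not searched. RPA190 (YOR341W), the largest subunit, was at 714 and 724 CPM in the hybrid and at 570 and 571 CPM in the co-culture, with the groups apart (log2 0.33 ± 0.06 SE, adjusted p = 3.36e-05, edgeR). RPA135, the other large subunit, rose by 0.28. RRN11, a subunit of the core factor, rose by 0.87 and lies on chromosome XIII. In RNA polymerase III 5 of 14 rose and 1 fell, and 3 rose with DESeq2. RPC53, one of its subunits, rose by 0.59 (adjusted p = 3.46e-07). The exact PAC letters were in 1 of the 14 promoters of that list.

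Of 25 tested tRNA modification genes 15 were higher and 1 was lower (median 0.24), and 9 were higher with DESeq2. DUS3 (YLR401C), a dihydrouridine synthase, was at 489 and 463 CPM in the hybrid and at 362 and 335 CPM in the co-culture, with the groups apart (log2 0.45 ± 0.06 SE, adjusted p = 2.72e-06, edgeR). TRM1, a guanosine methyltransferase of tRNA, and PUS7, a pseudouridine synthase, rose by 0.38 and 0.36. In translation initiation 7 of 15 rose and none fell (1 fell without hybrid replicate 2). FUN12 (YAL035W), which encodes the joining factor eIF5B, was at 425 and 437 CPM in the hybrid and at 280 and 272 CPM in the co-culture. RPG1, a subunit of eIF3, was at 2481 and 2285 CPM against 1661 and 1484 CPM. Both were higher in each hybrid library than in either co-culture library and rose by 0.65 and 0.60 (adjusted p = 5.37e-09 and 9.03e-09).

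Small-subunit ribosomal proteins rose in 15 of 26 tested genes (10 with DESeq2), and none fell. Large-subunit proteins rose in 12 of 44 and fell in 4. Their counts were 4 higher and 2 lower with DESeq2, between 6 and 12 higher and between 3 and 8 lower when 1 library was left out, with 6 higher and 8 lower without hybrid replicate 2. Of these 2 lists, 9 and 11 tested genes have a near-identical copy in the genome, and counting could have split reads between copies, so their values are uncertain.

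Several mitochondrial lists had more members higher than lower in the hybrid, and others did not. The mitochondrial ribosome list had 24 of 48 tested members higher and 1 lower (12 higher with DESeq2), with a median of 0.47 for the BY reads and 0.15 for the RM reads. In protein import 8 of 19 rose and 1 fell. TIM44 (YIL022W), the anchor of the import motor, was at 317 and 310 CPM in the hybrid and at 179 and 189 CPM in the co-culture. TIM44 rose by 0.77 on the log2 scale (SE 0.07, adjusted p = 1.40e-09, edgeR), with 0.87 for BY reads and 0.67 for RM reads. The tricarboxylic acid cycle with pyruvate dehydrogenase had 3 of 18 higher and 3 lower, and ATP synthase had 3 of 11 higher and 2 lower. Respiratory complexes III and IV with cytochrome c had 7 of 16 higher and 2 lower, and here the alleles went apart, with a median of 0.70 for BY reads and -0.31 for RM reads. CYT1 (YOR065W), cytochrome c1, was at 866 and 826 CPM against 533 and 541 CPM and rose by 0.66 (adjusted p = 4.88e-10). Its BY reads were higher by 1.93 and its RM reads by 0.02, so the rise of the total came from the BY allele. CYC1, the main cytochrome c, had 2.83 for BY reads and -0.40 for RM reads, and RIP1, the Rieske protein, had 2.06 and -0.30. HAP1, which encodes the heme-dependent activator of such genes, was at 397 and 403 CPM in the hybrid and at 454 and 439 CPM in the co-culture. Its call (adjusted p = 0.0472) was lost when any single library was left out, with DESeq2 and with RLE scaling.

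Sterol and fatty acid genes were higher in part. Of 18 tested ergosterol genes 9 rose and 3 fell, but 5 members lie on chromosome XIII and rose, and without that chromosome 5 of 13 rose. HMG1 (YML075C), the main HMG-CoA reductase, lies there and was at 1504 and 1400 CPM in the hybrid and at 976 and 907 CPM in the co-culture (log2 0.62 ± 0.06 SE, adjusted p = 1.85e-09, edgeR). ERG10, the acetoacetyl-CoA thiolase on chromosome XVI, rose by 0.26 (adjusted p = 0.000468). Over the list the median was 0.51 for BY reads and -0.09 for RM reads. The count of ergosterol genes lower was 0 without hybrid replicate 2, 1 without co-culture replicate 1 and 1 with DESeq2. The sterol element TCGTATA was in 2 of the 18 promoters, compared with 4.18% of all promoters searched.

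In fatty acid synthesis 7 of 13 tested genes rose and 2 fell. ACC1 (YNR016C), the acetyl-CoA carboxylase, was at 1457 and 1409 CPM in the hybrid and at 1105 and 1062 CPM in the co-culture, with the groups apart (log2 0.40 ± 0.06 SE, adjusted p = 1.62e-06, edgeR). OLE1, the only fatty acid desaturase of this yeast, rose by 0.48 (adjusted p = 5.00e-07), with 1.62 for BY reads and -0.83 for RM reads. ELO1, an elongase of shorter chains, fell by 0.47 (adjusted p = 1.17e-06).

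Cell cycle genes were lower in part of the list. Of 20 tested cyclins and regulators 10 were lower and 1 was higher (median -0.28), and 6 were lower with DESeq2. CLN2 (YPL256C), a G1 cyclin, was at 137 and 138 CPM in the hybrid and at 228 and 279 CPM in the co-culture. The groups were apart, and CLN2 fell by 0.89 on the log2 scale (SE 0.09, adjusted p = 2.64e-09, edgeR). FAR1 (YJL157C), which holds cells in G1 in response to pheromone, was at 78.2 and 77.3 CPM against 597 and 588 CPM and fell by 2.93 (SE 0.07, adjusted p = 9.53e-23). SWI5, a transcription factor of late mitosis, CLB1, a mitotic cyclin, and CLN1, another G1 cyclin, fell by 0.65, 0.56 and 0.46. CLN3, the most upstream G1 cyclin, rose by 0.39 (adjusted p = 1.47e-05), with 0.90 for BY reads and 0.02 for RM reads. Of 5 tested histone genes 4 fell, and 2 fell with DESeq2. HHF1, a histone H4 gene, fell by 0.49 and HTA2, a histone H2A gene, by 0.31, and each has a near-identical copy, so both are uncertain.

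Bud site genes were lower in the hybrid in 6 of 11 tested members and higher in none, with a median of -0.27. AXL2 (YIL140W), a membrane landmark of axial budding, was at 190 and 195 CPM in the hybrid and at 362 and 392 CPM in the co-culture. Both hybrid libraries were about equal and well below the co-culture (log2 -0.97 ± 0.07 SE, adjusted p = 7.15e-12, edgeR). AXL1, a haploid-specific protease needed for axial budding, was at 8.33 and 7.66 CPM against 27.0 and 28.6 CPM and fell by 1.80 (adjusted p = 4.14e-07). BUD3, another axial landmark, fell by 0.48 (adjusted p = 8.34e-06). RAX2 (YLR084C), a landmark of bipolar budding, also fell, by 0.74 (adjusted p = 6.75e-09). BUD8 and BUD9, which mark the poles of bipolar cells, differed in outcome. BUD9 was at 72.1 and 83.3 CPM against 75.4 and 77.2 CPM, which overlap, and BUD8 fell by 0.22 (adjusted p = 0.0266), a call lost without hybrid replicate 1, without co-culture replicate 2, without chromosome XIII and with DESeq2.

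Cell wall genes went both ways, with 12 of 24 tested members lower and 5 higher (3 of 21 higher without chromosome XIII). TIR1 (YER011W), a mannoprotein induced by cold and low oxygen, was at 77.1 and 64.7 CPM in the hybrid and at 248 and 217 CPM in the co-culture. TIP1 (YBR067C), a related mannoprotein, was at 319 and 305 CPM against 651 and 668 CPM. Both had the groups apart and fell by 1.73 (SE 0.09, adjusted p = 1.24e-14) and 1.08 (SE 0.06, adjusted p = 2.76e-14) on the log2 scale (edgeR), with similar values for both alleles. CWP1, another mannoprotein, fell by 1.05 through its RM reads (-1.34), while its BY reads were higher by 0.45. CHS1, a chitin synthase of repair after division, and SLT2, the kinase of the cell wall integrity pathway, fell by 0.75 and 0.51. TIR3 rose by 0.74 (adjusted p = 6.12e-08), and GAS1, a glucan-remodelling enzyme on chromosome XIII, rose by 0.31.

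Of 14 tested genes of the meiosis list 4 were lower in the hybrid and none was higher (1 was higher against the mean of the parents). IME4 (YGL192W), an RNA methyltransferase that acts on entry into meiosis, was at 85.1 and 75.9 CPM in the hybrid and at 287 and 270 CPM in the co-culture (log2 -1.80 ± 0.08 SE, adjusted p = 2.48e-16, edgeR). IME4 overlaps the antisense RNA gene RME2 (YNCG0006C), which haploid cells transcribe and a/alpha cells repress. Whether the authors' counting used strand is not given in the sources used here, so reads of IME4 and RME2 cannot be told apart. The neighbour YGL193C, which also overlaps RME2, fell by 2.89 (adjusted p = 1.19e-13). IME1, the master regulator of meiosis, fell by 0.85 as a total but was higher by 1.48 against the mean of the parents, and its alleles went apart. Its BY level was 16.6 CPM in the hybrid and 36.1 CPM in the co-culture, and its RM level was 3.48 CPM and 0.342 CPM, the last below the level that 3 reads of a co-culture library give (0.942 to 1.11 CPM). NDJ1 (YOL104C), a telomere protein of meiosis, is not a member of the meiosis list counted above. It had the largest fall named outside the mating lists, at 5.80 and 7.90 CPM in the hybrid and at 98.0 and 110 CPM in the co-culture (log2 -3.88 ± 0.17 SE, adjusted p = 1.26e-16, edgeR). Nearly all of the co-culture level of NDJ1 came from the BY allele, at 101 CPM compared with 2.84 CPM from the RM allele.

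Metal and phosphate genes changed in single members. ZRT1 (YGL255W), the high-affinity zinc transporter, was at 535 and 497 CPM in the hybrid and at 267 CPM in both co-culture libraries. The groups were apart, and ZRT1 rose by 0.95 on the log2 scale (SE 0.07, adjusted p = 2.24e-12, edgeR). ZRC1, the vacuolar zinc transporter on chromosome XIII, rose by 0.71 (adjusted p = 9.95e-11), while COT1, a related transporter, fell by 0.37 (adjusted p = 0.00071). In all 3 of 9 zinc list members were higher and 1 was lower. The Zap1 core was in 3 of the 9 promoters (ZRT1, ZRC1 and ZRG17), compared with 3.99% of all promoters searched. ZRG17 did not pass the test (log2 0.10). Of 15 tested iron genes 4 fell and none rose (3 rose against the mean of the parents). FRE2, a ferric reductase, fell by 1.17 and ARN1, a siderophore transporter, by 0.61, both through their RM reads (-1.70 and -1.06) with BY reads at 0.07 and 0.06. ENB1, the enterobactin transporter, fell by 0.55 in both alleles. In the phosphate list 4 of 12 fell and 1 rose. PHO8, the vacuolar alkaline phosphatase, and VTC3, a subunit of the polyphosphate polymerase, fell by 0.81 and 0.47, through their BY reads (-1.45 and -0.86), while their RM reads were higher by 0.11 and 0.45. The sequence CACGTG, bound by Pho4 and Cbf1, was in 4 of 12 phosphate promoters and in 4 of 17 sulfur promoters, compared with 2.97% of all. Phosphate members with it had a median log2 difference of 0.07 and those without it -0.18. In the sulfur list the medians were 0.10 with it and -0.31 without it.

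The proteasome list showed no lean in either direction. Of 24 tested proteasome genes 3 rose and 4 fell, close to the shares over all genes. The count lower was 2 without hybrid replicate 2 and 2 without co-culture replicate 2, and the count higher was 1 without co-culture replicate 1. The Rpn4 element GGTGGCAAA was in 20 of 24 proteasome promoters, compared with 1.20% of all promoters searched. Members with it had a median of 0.08 and those without it -0.02. In the list of nuclear pore genes 11 of 24 rose and none fell, but 5 lie on chromosome XIII, and 7 of 19 rose without it. The count was 6 without hybrid replicate 2 and 6 with DESeq2.

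Of 49 tested regulators 7 rose, 6 fell and 36 did not pass. The count lower was 3 without hybrid replicate 1, 3 without co-culture replicate 1, 3 against the mean of the parents and 2 with DESeq2. SCH9 (YHR205W), a kinase that promotes ribosome synthesis, was at 239 and 231 CPM in the hybrid and at 151 and 158 CPM in the co-culture (log2 0.61 ± 0.07 SE, adjusted p = 2.55e-07, edgeR). SFP1 and IFH1, activators of ribosome genes, rose by 0.32 and 0.35, though IFH1 did not pass with DESeq2. DOT6, a repressor that binds the PAC element, was at 555 and 540 CPM against 728 and 691 CPM and fell by 0.37 (adjusted p = 9.03e-06). The groups were apart in each of these. TOD6, the related repressor, did not pass (log2 0.07, adjusted p = 0.484). OPI1, a repressor of phospholipid genes, rose by 0.62, and PDR3, an activator of drug efflux pumps, fell by 0.72 (adjusted p = 2.79e-08).

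**Figure D4:**
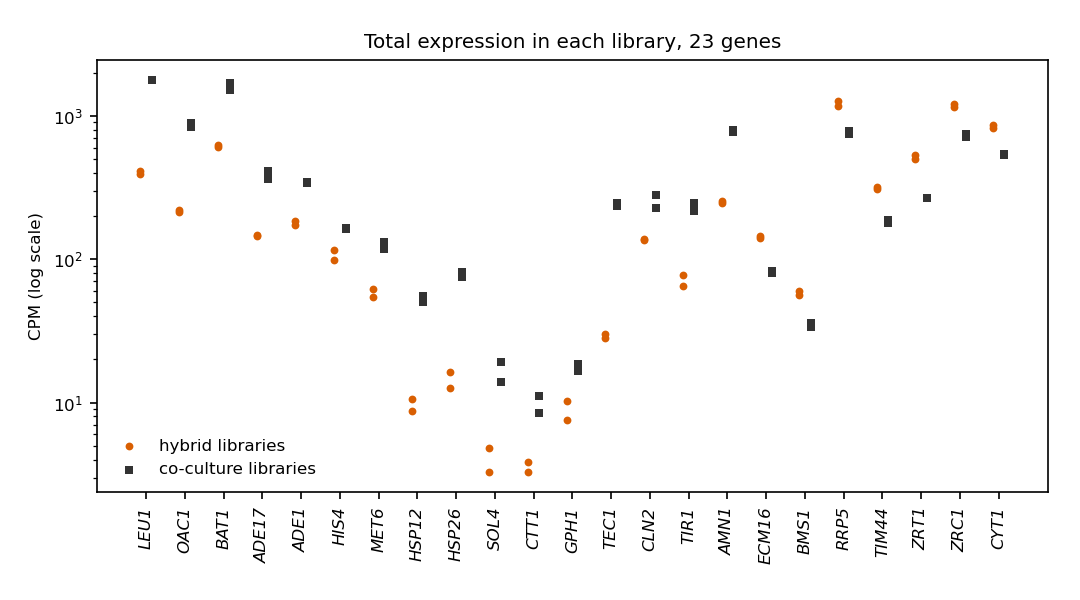
CPM of 23 genes (log scale) in each of the 2 hybrid libraries (orange circles) and the 2 co-culture libraries (dark squares); points that share a level lie on top of each other. In each of these genes, which were picked after their values were seen, the libraries of a group lie closer to each other than to the other group, with LEU1, HSP12 and TEC1 well below and ZRT1 above the co-culture.

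The largest changes outside the mating lists were compared by allele. All 15 of the largest falls and all 15 of the largest rises had both BY and RM reads moving the same way. These genes were picked by the change of the total, which favours alleles that move together. The share of such genes among all genes tested was not counted. TEC1 (YBR083W), a transcription factor of filamentous growth, was at 30.1 and 28.3 CPM in the hybrid and at 234 and 246 CPM in the co-culture, and fell by 3.05 on the log2 scale (SE 0.10, adjusted p = 5.98e-20, edgeR). CMK2 (YOL016C), a calmodulin-dependent kinase, was at 13.0 and 15.3 CPM against 117 and 147 CPM and fell by 3.20 (adjusted p = 3.71e-16). The groups were far apart in both, and the fall was larger in RM reads for TEC1 (-3.57 compared with -2.20) and larger in BY reads for CMK2 (-3.96 compared with -1.67). Of the rises, HXT2, a glucose transporter on chromosome XIII, rose by 0.89, and APT1, adenine phosphoribosyltransferase on the same chromosome, rose by 0.81.

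**Figure D5:**
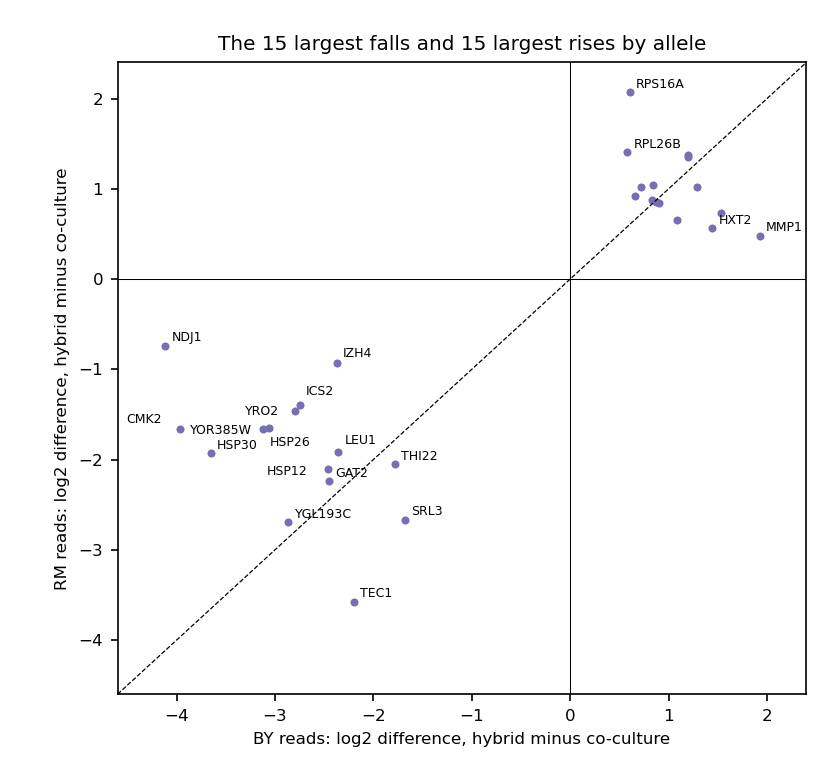
Log2 difference, hybrid minus co-culture, of the BY reads (x axis) and of the RM reads (y axis) for the 15 largest falls and 15 largest rises outside the mating lists; the dashed line marks equal change. The falls lie in the lower left, with NDJ1, CMK2 and HSP30 shifted to larger falls of BY reads and TEC1 and SRL3 to larger falls of RM reads, and the rises lie in the upper right.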

How the data were processed

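RNA was measured in 2 hybrid and 2 co-culture libraries of poly(A) RNA, per the labels' protocols. Cultures were grown at 30 °C and shaken at 250 rpm to an OD600 of 1.0, and RNA was extracted with hot acid phenol. The labels describe 12 PCR cycles. Per the submitters' processing notes, CASAVA 1.8.2 and Bowtie were used. The deposited values are whole-number read counts on SNP sites of gene pairs, per the file headers. Genome build, SNP set, medium and use of strand: not given in the sources used here.

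The BY and RM counts of a gene were added. Genes passed edgeR's filterByExpr (minimum count 10) and were tested with edgeR 4.0.16 (glmQLFit and glmQLFTest, limma 3.58.1, R 4.3.3) with TMM scaling and group as the only term. Residual degrees of freedom were 2 per gene. The floor of 3 reads was 0.718 to 1.11 CPM. Replicate libraries differed by more than counting noise (chi-square per degree of freedom of 2.75 between hybrid libraries and 2.70 between co-culture libraries), so they were not treated as repeat deposits of one library. The labels do not say whether they came from separate cultures. Allele differences are log2 ratios of CPM with a pseudocount of 0.5 and were not tested. DESeq2 1.42.0 was an alternative. The edgeR step was tested on simulated data.

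Of 4442 names, 4325 matched RefSeq R64. There, 89 genes overlap another and 42 have a near-identical copy (blastn 2.17.0, at least 90% identity over 50% of the length). Promoters of 4236 tested genes were searched. Members, gene lists, motifs and alternatives were chosen with earlier results of these data known. Named genes were the 15 largest rises and falls with a mean of at least 50 reads and groups apart, the 4 members of each list with the smallest p, all members of lists of at least 5 tested genes in which 50% or more passed in 1 direction, and all regulators. The text names some of these, picked after their values were seen.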

Additional observations from a re-analysis of the deposited data

How the results depend on the processing

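The counts over all genes, 762 higher and 768 lower, became 147 and 244 when the test was against a change of at least 25% (edgeR's glmTreat), and 443 and 366 with DESeq2, which also tested fewer genes (4179). These 391 and 809 calls were all among the 1530 and in the same direction. The count of genes higher lay between 605 and 691 and that of genes lower between 582 and 616 when 1 library was left out; the single library left in a group is then assumed to vary like the other group. Scaling with RLE gave 797 and 731, library totals only 678 and 843, no filter 771 and 772, a mean of at least 50 reads 731 and 738, and the mean of the parents 909 and 684. Against the mean of the parents 5 named genes reversed, namely NPT1 (0.0280), IME1 (1.48), DSE1 (0.84), CHS3 (0.31) and RPN4 (0.43 on the log2 scale), and the cause was not tested. Of the 686 genes named by the rules, 407 kept their direction and side of the threshold under the test against 25%, and of those with a DESeq2 value 554 did and 122 no longer passed. With a replicate block the counts were 1004 and 1013, and all 1530 calls were among them. Under the block, lists given as having none in a direction had 4 small-subunit ribosomal protein genes lower, 2 nitrogen catabolite repression targets higher, 1 iron gene higher, and 1 gene lower each in translation initiation, RNA polymerase I and the nuclear pore, and large-subunit ribosomal protein genes had 18 higher and 14 lower. The labels do not tie library numbers to each other. The differences between libraries 1 and 2 in the hybrid correlated with those in the co-culture (0.25 across 4327 genes), and what libraries of the same number share was not tested. Depth limits low genes, since 3 reads are 0.718 to 1.11 CPM.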

Other observations

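Lists added after the values were seen, for genes near those described, gave the following counts, as a description only. Of 19 tested genes of filamentous growth signalling, 9 were lower in the hybrid and 1 was higher, with a median log2 difference of -0.31. MSB2, a signalling mucin at the cell surface, was at 293 and 265 CPM in the hybrid and at 674 and 639 CPM in the co-culture, and fell by 1.24 (adjusted p = 4.90e-15, edgeR). KSS1, the kinase of this pathway, and SFG1 and HMS1, which encode transcription factors of filamentous growth, fell by 1.00, 1.07 and 1.48. SFL1, a repressor of flocculation genes, rose by 0.74 (adjusted p = 1.53e-09). STE7, STE11, STE20 and STE50, shared with the mating pathway, did not pass, with log2 differences of 0.16, -0.09, -0.05 and 0.08.

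In mitochondrial gene expression 13 of 27 were higher and 1 was lower (8 and 0 with DESeq2). MEF1 and TUF1, elongation factors of the mitochondrial ribosome, rose by 0.66 and 0.46, with BY reads at 1.14 and 0.81 and RM reads at 0.31 and 0.18.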
